A study of Mus musculus with 11 samples.

Results

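The endothelial cells of the mouse liver were followed through 44 gene symbols, 13 of them markers of the sinusoidal endothelium and the others genes that endothelial cells use in general. A gene entered when its symbol in the annotation of the array platform was on that list. Of the 44 symbols 43 had a feature, out of 23185 named genes on the array. The symbol without a feature, Eltd1, is the older name of Adgrl4, which was measured, so 13 sinusoidal markers and 30 general endothelial genes are described.

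RNA of sorted liver cells was hybridised to 11 Affymetrix MoGene ST 2.0 arrays. The groups were YFP+ cells of mice on a DDC diet (3 arrays, 5 weeks of diet), YFP+ cells of mice treated with CDE (3 arrays, duration not given in the labels), YFP+ cells of untreated mice (UTR, 2 arrays) and YFP- cells of untreated mice (3 arrays). YFP is a yellow fluorescent protein that here traces cells of bile duct origin. DDC is a dihydrocollidine that injures bile ducts, and CDE is a choline-deficient, ethionine-supplemented diet that injures hepatocytes. The mouse line and the driver of YFP, the strain, the age and the number of animals behind an array are not named in the labels, and the protocol mentions 4 mice on DDC. All arrays share the same preparation: non-parenchymal cells of collagenase-perfused livers, sorted alive on a YFP gate set with wild type mice. The YFP- samples were therefore every living cell of that pellet outside the gate, although their titles also carry the name liver progenitor cells.

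Sinusoidal endothelial cells line the capillaries between the plates of hepatocytes. They have open pores and no continuous basement membrane, and they clear waste molecules from the blood with scavenger receptors and lectins. Growth factors of the VEGF and angiopoietin families, sensed by receptors such as KDR and TEK, maintain endothelial cells throughout the body, and transcription factors of the ETS, SOX and GATA families set their identity. Bile duct cells, which the YFP label follows, are epithelial and lie beside blood vessels in the portal tracts.

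The 3 YFP- arrays stood apart from each other. Across genes, YFP+ arrays correlated with each other at 0.98 to 0.991, YFP- arrays with each other at 0.888 to 0.925, and arrays of unlike sort at 0.805 to 0.901. The biliary keratin gene Krt19 was at 10.64 and 10.47 in UTR, and at 8.28, 4.64 and 4.65 on YFP- replicates 1, 2 and 3, so the name liver progenitor cells was not matched by this marker on replicates 2 and 3. Levels here are the deposited log2 values, and differences are log2 differences with the standard error (SE) of a limma fit. A gene was called when its p-value, adjusted over all named genes by Benjamini-Hochberg, was under 0.05. Levels of different genes are not comparable on this scale, and in such bulk samples fewer cells of a type and less RNA per cell cannot be told apart.

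Endothelial genes were far lower in untreated YFP+ cells than in YFP- cells. Of the 43 genes 40 were lower and 0 higher, where 8.46% of all named genes were lower and 10.4% higher. All 13 sinusoidal markers passed, with a median difference of -4.57 and a range of -6.49 to -2.33. Of the general genes 27 of 30 passed, with a median of -4.35 and a range of -6.50 to 0.07, against a median of -0.01 over all genes. The arrays of the groups did not overlap, with UTR below YFP-, for 42 of the 43 genes and for 20.5% of all genes. At an unadjusted p under 0.05, 41 were lower, against 14.8% of all genes. The 2 classes spanned much the same range, and the difference between them was not tested.

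**Figure D1:**
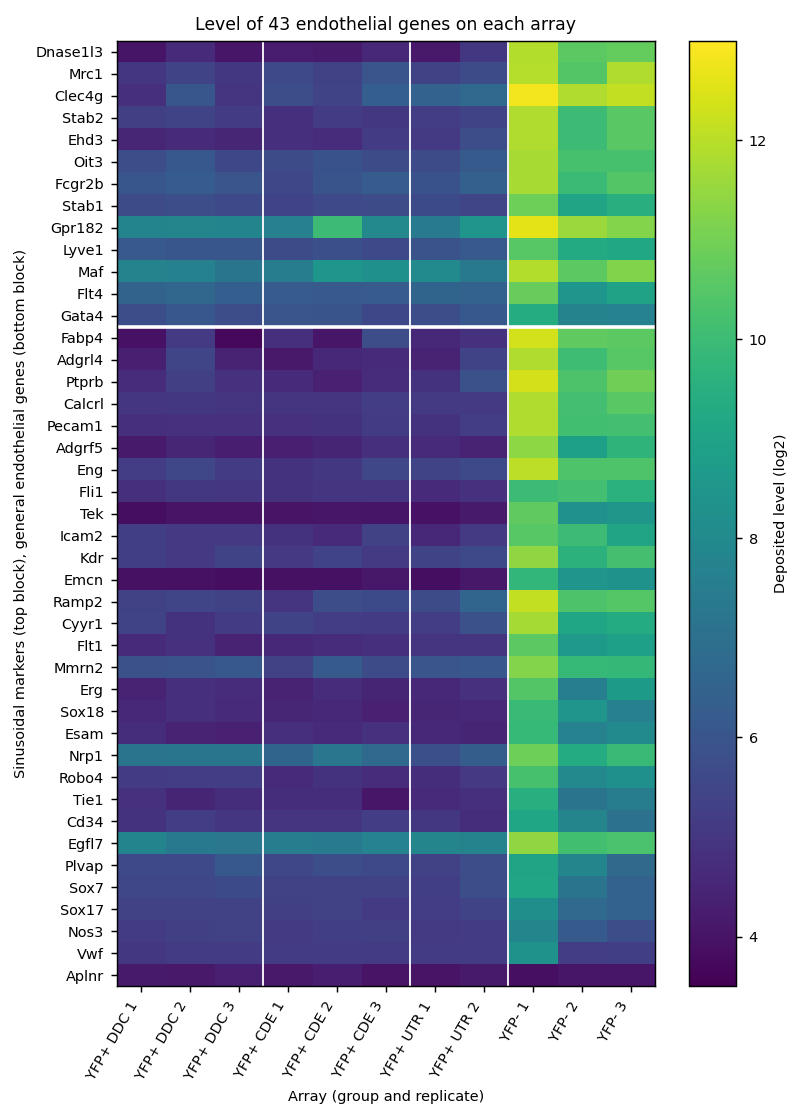
Deposited log2 level of each of the 43 endothelial genes (vertical) on each of the 11 arrays (horizontal), with sinusoidal markers above the white line and general genes below it. The 8 YFP+ arrays are dark and alike, the 3 YFP- arrays all lie above them for 42 of 43 genes, and YFP- replicate 1 is the highest YFP- array for 41 of 43.

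Scavenger receptors and lectins of the sinusoid, listed together with the Fc receptor Fcgr2b and the endocytic gene Ehd3, were lower by a median of 5.37. Of these genes 7 of 7 were called. Stab2, a receptor that clears hyaluronan from the blood, was at 5.22 and 5.43 in UTR, against 11.85, 10.01 and 10.56 in YFP-. The difference was -5.48 ± 0.43 (SE), or 44.7-fold lower, with a limma adjusted p of 7.93e-05. Even the lowest YFP- array thus lay far above the higher UTR array. Its relative Stab1 was at 5.65 and 5.50 in UTR and at 10.90, 9.03 and 9.47 in YFP- (-4.23 ± 0.43, limma adjusted p = 0.000274). Clec4g, a C-type lectin of liver sinusoids, was at 6.50 and 6.73 in UTR and at 12.82, 11.87 and 12.11 in YFP-, a difference of -5.65 ± 0.42. Both genes separated the groups without overlap, and the 3 YFP- arrays lay closer together for Clec4g than for Stab1.

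Lyve1, the hyaluronan receptor shared by sinusoidal and lymphatic endothelium, was at 5.92 and 6.15 in UTR and at 10.55, 9.31 and 9.19 in YFP-. Mrc1, the mannose receptor, which macrophages also carry, was at 5.39 and 5.70 in UTR and at 11.95, 10.45 and 11.88 in YFP-. Fcgr2b, an inhibitory Fc receptor of sinusoids and of leukocytes, was at 5.91 and 6.41 in UTR and at 11.74, 9.99 and 10.47 in YFP-. Every UTR value of these genes was below every YFP- value. The differences were -3.65 ± 0.34 for Lyve1, -5.88 ± 0.42 for Mrc1 and -4.57 ± 0.44 for Fcgr2b. Ehd3, which takes part in endocytic recycling, differed by -5.37 ± 0.45.

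Both genes of secreted sinusoidal proteins were lower. Dnase1l3, a nuclease that degrades circulating chromatin, was at 4.16 and 5.04 in UTR and at 11.92, 10.61 and 10.74 in YFP-. It was 89.8-fold lower in UTR (-6.49 ± 0.41, limma adjusted p = 3.91e-05). UTR replicate 1 lay below the lower quartile of all genes, which ran from 4.27 to 4.38 over the arrays, and UTR replicate 2 lay above it. Oit3, a secreted protein of liver endothelium, was at 5.72 and 6.18 in UTR and at 11.77, 10.22 and 10.23 in YFP- (-4.80 ± 0.42).

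Receptors of the VEGF family were all lower, by a median of 4.22 with 4 of 4 called. Kdr, the main signalling receptor for VEGF-A, was at 5.46 and 5.58 in UTR and at 11.41, 9.61 and 10.19 in YFP-. The difference was -4.89 ± 0.42, or 29.6-fold lower (limma adjusted p = 0.000128). Flt1, a high-affinity receptor that also acts as a decoy, was at 4.94 and 4.93 in UTR and at 10.60, 8.61 and 8.88 in YFP- (-4.43 ± 0.48). Flt4, the receptor of VEGF-C in lymphatic and sinusoidal endothelium, differed less, by -2.88 ± 0.53, with 6.58 and 6.49 in UTR and 10.78, 8.50 and 8.97 in YFP-. On YFP- replicate 1 it stood 2.04 above the mean of the other YFP- arrays. Nrp1, a co-receptor for VEGF and semaphorins that epithelia and leukocytes also use, was at 5.81 and 6.29 in UTR and at 10.91, 9.34 and 9.90 in YFP- (-4.00 ± 0.39).

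The angiopoietin axis fell in 3 of 3 genes. Tek, the angiopoietin receptor TIE2, was at 3.97 and 4.20 in UTR and at 10.69, 8.29 and 8.51 in YFP-. Both UTR values were below the lower quartile of all genes, so the difference of -5.08 ± 0.57 is read as at least 33.7-fold lower. Tie1, its partner receptor, differed by -3.31 ± 0.56, and Ptprb, the phosphatase VE-PTP that restrains TIE2, by -5.85 ± 0.52. Ptprb was at 4.90 and 5.84 in UTR, a wider gap than for most endothelial genes, and at 12.38, 10.34 and 10.94 in YFP-.

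Junction and surface genes were lower in 7 of 7, with a median of -4.88. Pecam1, the platelet endothelial adhesion molecule found at endothelial junctions, was at 4.90 and 5.21 in UTR and at 11.85, 10.11 and 10.17 in YFP- (50.4-fold lower, limma adjusted p = 8.19e-05). Eng, a co-receptor for BMP ligands, was at 5.43 and 5.58 in UTR and at 12.06, 10.38 and 10.37 in YFP-, a difference of -5.43 ± 0.45. The same separation held for Icam2, an adhesion molecule (-5.03 ± 0.39), for Emcn, a sialomucin (-4.88 ± 0.36, at least 29.4-fold since UTR lay below the lower quartile), and for Esam, a tight junction protein (-4.02 ± 0.51).

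The 3 genes that are more typical of larger vessels or of sinusoids that have lost their pores had a median difference of -2.33, with 2 of 3 called. This was smaller than the median of either class. Differences of that size also occurred outside this list, as for Gata4 (-2.33), Sox7 (-2.04) and Sox17 (-1.80). Cd34, a sialomucin of continuous capillaries, was at 5.03 and 4.75 in UTR and at 9.12, 7.83 and 7.08 in YFP- (-3.12 ± 0.46). Plvap, which forms the diaphragms of endothelial pores and vesicles, was at 5.39 and 5.73 in UTR and at 9.05, 7.87 and 6.77 in YFP- (-2.33 ± 0.52, limma adjusted p = 0.0124). Vwf, the clotting factor stored by the endothelium of larger vessels, was at 5.14 and 5.18 in UTR and at 8.33, 5.24 and 5.27 in YFP-. Only YFP- replicate 1 was high for Vwf, and the difference did not pass (-1.12 ± 0.76, limma adjusted p = 0.357). Without that array it was -0.10.

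Among the other matrix and secreted proteins, Egfl7, an endothelial matrix protein, was at 7.81 and 7.76 in UTR and at 11.44, 10.12 and 10.31 in YFP- (-2.83 ± 0.34). Mmrn2, a vascular matrix protein of the multimerin family, differed by -4.27 ± 0.40.

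**Figure D2:**
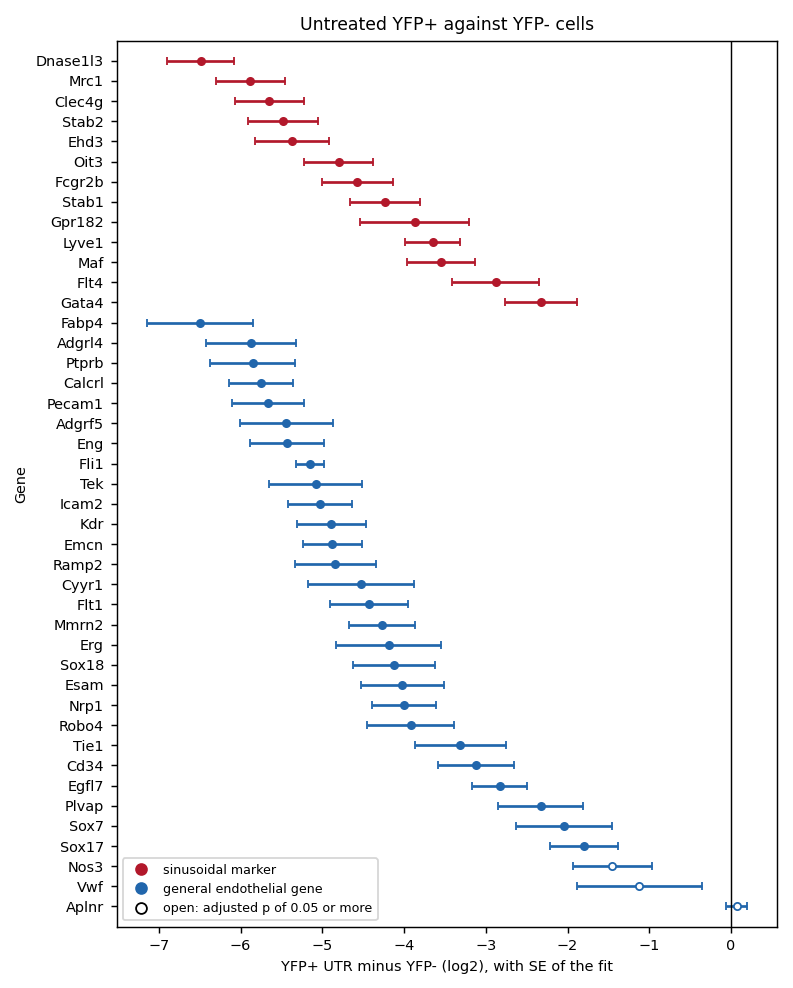
Difference between YFP+ UTR and YFP- cells (log2, horizontal) for each gene (vertical), with the SE of the limma fit as bars. Red points are sinusoidal markers and blue points general genes, and the 3 open points on the right, Nos3, Vwf and Aplnr, are the ones that did not pass.

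Transcription factors of the endothelium were lower in 7 of 7, with a median of -3.55. Fli1, an ETS factor of endothelial and blood cells, had the smallest error of the called genes: it was at 4.68 and 4.84 in UTR and at 10.01, 10.15 and 9.57 in YFP- (-5.15 ± 0.17, limma adjusted p = 3.3e-06). It was also the one called gene for which YFP- replicate 1 was not the highest. Erg, an ETS factor that endothelial cells need to keep their identity, was at 4.56 and 4.86 in UTR and at 10.46, 7.58 and 8.66 in YFP- (-4.19 ± 0.64). The YFP- arrays spread far more widely for Erg than for Fli1.

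The SOX factors of vessel identity differed by -4.12 ± 0.50 for Sox18, -2.04 ± 0.59 for Sox7 and -1.80 ± 0.42 for Sox17. Sox7 was at 5.28 and 5.79 in UTR and at 9.09, 7.15 and 6.49 in YFP-, and its limma adjusted p of 0.0413 was the highest among the called genes. Without YFP- replicate 1 its difference was -1.29, and without UTR replicate 1 its adjusted p was 0.217. Gata4, the factor that keeps liver endothelium sinusoidal in mice, was at 5.77 and 6.12 in UTR and at 9.37, 7.74 and 7.72 in YFP- (-2.33 ± 0.44, limma adjusted p = 0.00565). Maf, a leucine zipper factor of sinusoids and of macrophages, differed by -3.55 ± 0.42.

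ETS factors such as ERG and FLI1 bind a motif whose core is GGAA, and the promoters of the genes were searched for AGGAAG on either strand (CTTCCT when it lies on the opposite strand). The search used RefSeq windows of GRCm38.p6 that run 250 bases before to 50 after a gene's start, and 22 of the 43 genes had at least 1 window. The motif was in 19 of the 27 windows of these genes (70.4%), and in 11613 of all 32851 promoter windows of that table (35.4%). A match describes letters and is neither a binding site nor a cause. The stretches below show the motif, in capitals, in 6 genes with a match, chosen as examples: 2 receptors of growth factors, 3 scavenger receptors or lectins, and Erg itself. All 6 genes lie on the minus strand and are written 5′ to 3′ along the gene.
Flt1: ggtgccggggtAGGAAGtgggctgggga
Tie1: gaagccactggCTTCCTccctttcctgt
Stab1: cgtcctgggccAGGAAGccctgaacagg
Stab2: acctactttccCTTCCTaaccagggaaa
Clec4g: ccgacatggaaAGGAAGgaagggaggga
Erg: aatagaaacctCTTCCTgccattggctg
The windows are chr5:147726048-147726075 for Flt1, chr4:118490052-118490079 for Tie1, chr14:31168741-31168768 for Stab1, chr10:87007966-87007993 for Stab2, chr8:3720721-3720748 for Clec4g and chr16:95459372-95459399 for Erg. The motif shown began 53 bases before the start of Flt1, 219 before Tie1, 116 before Stab1, 40 before Stab2, 86 before Clec4g and 40 before Erg. Flt1 had another match 129 bases before its start, and Clec4g another 123 bases before, which are not shown.

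G protein-coupled receptors and guidance receptors were lower in 6 of 7. Calcrl, the receptor of adrenomedullin, was at 5.10 and 5.12 in UTR and at 11.86, 10.17 and 10.56 in YFP- (-5.75 ± 0.39). Its partner Ramp2 was at 5.69 and 6.61 in UTR and at 12.11, 10.36 and 10.50 in YFP- (-4.84 ± 0.50). The receptor and its partner thus separated the groups alike, with more spread between the UTR arrays for Ramp2.

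The adhesion receptors Adgrl4 (-5.87 ± 0.55) and Adgrf5 (-5.44 ± 0.57) and the guidance receptor Robo4 (-3.92 ± 0.53) also fell. Gpr182, an atypical chemokine receptor of sinusoids, was at 7.45 and 8.44 in UTR and at 12.62, 11.57 and 11.25 in YFP- (-3.87 ± 0.67). Aplnr, the apelin receptor of sprouting vessels, was the exception: it was at 4.00 and 4.19 in UTR and at 3.89, 4.09 and 4.09 in YFP-, below the lower quartile of all genes in every group mean (0.07 ± 0.13).

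The last 3 general genes differ in function. Fabp4, a fatty acid carrier of capillaries and macrophages, was at 4.58 and 4.86 in UTR and at 12.35, 10.69 and 10.61 in YFP-, 90.4-fold lower (-6.50 ± 0.65). Cyyr1, a small membrane protein, differed by -4.53 ± 0.65. Nos3, the endothelial nitric oxide synthase, was at 5.13 and 5.20 in UTR and at 7.86, 6.19 and 5.80 in YFP-, without overlap and without passing (-1.45 ± 0.48, limma adjusted p = 0.0656). Without YFP- replicate 1 the Nos3 difference was -0.83 and passed (limma adjusted p = 0.00362).

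The 1 spread per gene that the 4 groups share gives too small an SE for genes that vary more among the YFP- arrays. A fit of the 5 UTR and YFP- arrays alone called 28 of the 43 genes, 11 sinusoidal markers and 17 general genes. Nothing in the labels says that the arrays of a group hold different animals, and the spread behind each p-value may then be technical.

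Ligands of these receptors did not move together. Of 17 listed 16 were measured, and the median difference was -0.12. Of these 2 were higher and 3 lower, where 10.4% of all named genes were higher and 8.46% lower. Angpt1, the agonist of TIE2, was at 8.77 and 8.92 in UTR and at 6.84, 3.82 and 4.04 in YFP- (3.95 ± 0.77, limma adjusted p = 0.00685). Vegfa, the ligand of KDR and FLT1, was at 10.00 and 10.31 in UTR and at 7.93, 7.43 and 6.0 in YFP- (3.04 ± 0.45, limma adjusted p = 0.00166). These 2 ligands were thus higher in the YFP+ cells, while their receptors were higher in YFP-. Lower in UTR were Bmp2, a ligand that sinusoidal cells release to hepatocytes (-4.68 ± 0.52), Adm, the peptide adrenomedullin (-1.68 ± 0.30), and Angpt2, the context-dependent antagonist of TIE2 (-1.16 ± 0.29, at least 2.23-fold since both UTR arrays lay below the lower quartile).

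Endothelial partners of the pathway were listed with 18 genes, with a median of -1.05. Of these 8 were lower and 2 higher, against 8.46% and 10.4% of all named genes. Cdh5, the adherens junction cadherin of endothelium, was at 5.45 and 7.25 in UTR and at 12.09, 10.52 and 11.76 in YFP- (-5.10 ± 0.65). The UTR arrays stood far apart for Cdh5, with replicate 2 the higher. Gpihbp1, which anchors lipoprotein lipase on capillaries, was at 7.30 on both UTR arrays and at 13.01, 11.75 and 12.00 in YFP- (-4.96 ± 0.36). S1pr1, a receptor of sphingosine-1-phosphate, and Cldn5, a tight junction claudin, differed by -3.92 ± 0.54 and -3.40 ± 0.27. The 2 higher genes were Unc5b, a netrin receptor (2.04 ± 0.37), and Pdgfb, a growth factor that recruits pericytes (1.18 ± 0.15).

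Genes that mark zones of the sinusoid were split in the same way on both sides. Of the 6 pericentral genes 3 were lower and 0 higher, with Kit, the stem cell factor receptor, at -3.35 ± 0.58, Rspo3, the R-spondin of central veins, at -3.24 ± 0.98 (at least 9.42-fold lower) and Thbd, thrombomodulin, at -3.14 ± 0.74. Rspo3 was at 4.17 and 4.16 in UTR and at 10.00, 6.01 and 6.18 in YFP-, so most of its gap came with replicate 1. Of the 6 periportal genes 3 were lower and 0 higher: Msr1, a scavenger receptor also of macrophages (-5.81 ± 0.61, at least 55.9-fold lower), Adam23, a membrane protein of the disintegrin family (-5.55 ± 0.67), and Dll4, a Notch ligand (-3.13 ± 0.57). Rspo3 and Msr1 lay below the lower quartile of all genes on both UTR arrays, so their folds are bounds.

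Lymphatic genes gave no uniform picture. Prox1, the lymphatic master factor that liver epithelium also expresses, was higher in UTR (4.76 ± 0.80), as was Pdpn, podoplanin, which some epithelia carry (4.03 ± 0.73). Mmrn1, a multimerin of lymphatic endothelium and platelets, was at 4.25 and 4.58 in UTR and at 7.46, 4.57 and 4.99 in YFP- (-1.26 ± 0.68, limma adjusted p = 0.243). Again YFP- replicate 1 was the high array, and replicate 2 overlapped UTR.

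The 3 YFP- arrays did not carry endothelial genes at the same level. Replicate 1 was the highest of the 3 for 41 of the 43 genes, for 13 of 13 sinusoidal markers and 28 of 30 general genes, where it was the highest for 31.1% of all genes. The median level above UTR was 5.58 on replicate 1, 3.82 on replicate 2 and 3.95 on replicate 3. For sinusoidal markers these medians were 5.58, 3.83 and 4.29, and for general genes 5.51, 3.75 and 3.90. Endothelial genes other than Vwf and Aplnr were thus more than 0.5 above UTR on each of the arrays, and replicates 2 and 3 resembled each other in level.

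Replicate 1 exceeded the mean of replicates 2 and 3 by a median of 1.63 over the 43 genes, by 1.5 over sinusoidal markers and 1.70 over general genes, against -0.05 over all genes. The excess was largest for Vwf at 3.07, followed by Cyyr1 at 2.51, Erg at 2.34, Tek at 2.29 and Sox7 at 2.27. Among the sinusoidal markers it ran from 0.78 for Mrc1 and 0.83 for Clec4g to 2.04 for Flt4. Fli1, at 0.15, and Aplnr, at -0.20, were the genes for which replicate 2 was the highest.

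Replicates 2 and 3 were compared in the same way. Replicate 3 exceeded replicate 2 for 27 of 43 genes (62.8%, against 53.1% of all genes), for 10 of 13 sinusoidal markers and for 17 of 30 general genes, and the difference between the classes was not tested. Mrc1 and Erg were higher on replicate 3 by 1.43 and 1.08. In the other direction, replicate 3 minus replicate 2 was -1.10 for Plvap, -0.99 for Icam2, -0.82 for Sox18, -0.75 for Cd34, -0.66 for Sox7 and -0.58 for Fli1. The larger-vessel genes Vwf, Cd34 and Plvap had medians above UTR of 3.48, 2.31 and 1.21 on replicates 1, 2 and 3.

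**Figure D3:**
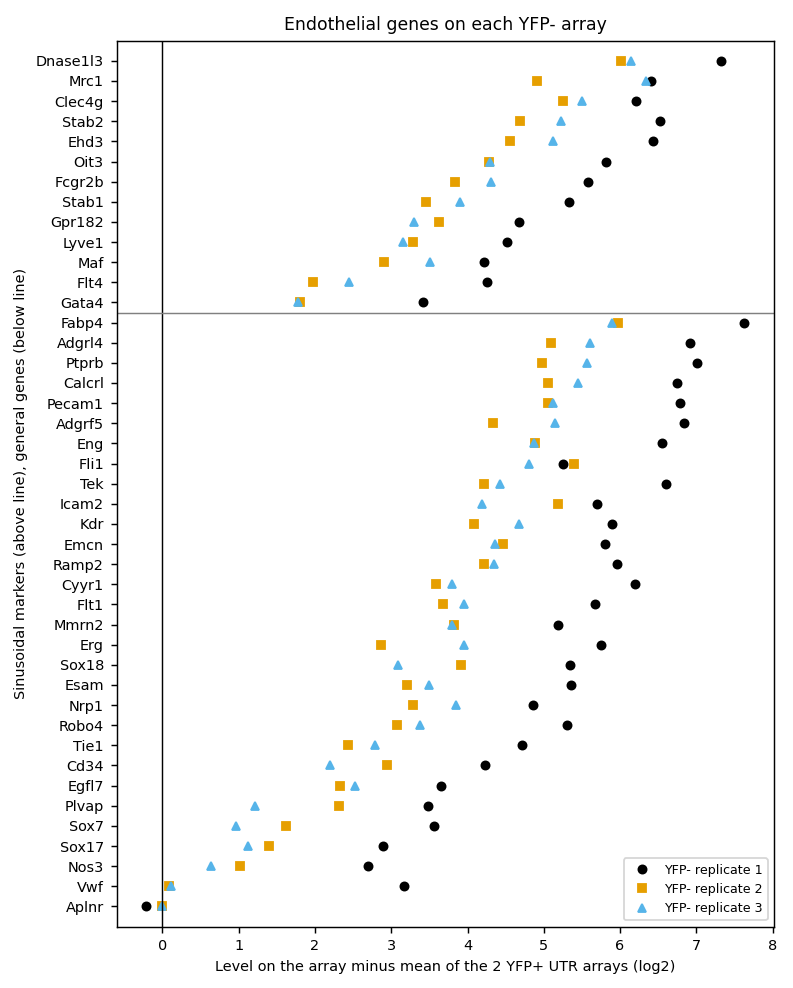
Level of each gene on each YFP- array minus the mean of the 2 YFP+ UTR arrays (log2, horizontal), with black circles for replicate 1, orange squares for replicate 2 and blue triangles for replicate 3. Black circles lie farthest to the right for 41 of 43 genes, and replicates 2 and 3 sit close to 0 for Vwf and Aplnr.

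Markers of other cells moved between the same arrays. All 8 measured biliary genes and 10 of 11 stellate cell or fibroblast genes were highest on YFP- replicate 1. All 8 lymphocyte genes and all 6 neutrophil or monocyte genes were highest on replicate 2, and all 10 macrophage genes on replicate 3. Of the 23185 named genes, 7204 were highest on replicate 1, 7721 on replicate 2 and 8260 on replicate 3. The pan-leukocyte gene Ptprc was at 8.75, 11.34 and 10.75 on replicates 1, 2 and 3, the T cell gene Cd3e at 4.43, 10.73 and 4.53, and the macrophage gene Adgre1 at 8.88, 8.89 and 11.65. Most endothelial genes were thus highest on the array where Ptprc was lowest.

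The mean level of the macrophage list ran from 6.30 to 6.46 on the UTR arrays and from 8.61 to 11.64 on the YFP- arrays, and that of neutrophils and monocytes from 4.47 to 4.66 in UTR and from 7.29 to 10.88 in YFP-. The lymphocyte list ran from 4.43 to 4.49 in UTR and from 4.76 to 10.90 in YFP-, and the platelet list from 5.41 to 5.49 in UTR and from 5.67 to 6.45 in YFP-. Stellate cell genes averaged 5.07 to 5.17 in UTR and 5.40 to 7.45 in YFP-, biliary genes 10.23 to 10.26 in UTR and 4.71 to 7.98 in YFP-, and hepatocyte genes 7.67 to 7.74 in UTR and 7.12 to 8.41 in YFP-. Leukocyte lists thus varied widely among the YFP- arrays, while the UTR arrays lay close together on each of these lists. Against YFP-, UTR was lower in 6 of 10 macrophage genes, 5 of 6 neutrophil or monocyte genes, 1 of 8 lymphocyte genes and 2 of 7 platelet genes, and higher in 8 of 8 biliary genes. Of 11 stellate genes 1 was lower and 1 higher, and of 11 hepatocyte genes 1 was lower and 3 were higher. Over all named genes 8.46% were lower and 10.4% higher, so a single call in a list lies near these shares. Alb, the albumin gene, was at 12.34 and 12.45 in UTR and at 10.61, 11.76 and 12.44 in YFP-.

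A list that may not be complete held 11 endothelial genes also used by leukocytes or platelets, among them Mrc1, Fcgr2b, Fli1, Pecam1, Icam2 and Fabp4. Their median difference was -5.03, with 10 of 11 lower. YFP- replicate 1, where Ptprc was lowest, was the highest YFP- array for 10 of these 11 genes, and replicate 2 was for the remaining one, Fli1. Mrc1 was nearly as high on replicate 3 (11.88) as on replicate 1 (11.95). The platelet gene Pf4 was at 7.20 and 6.38 in UTR and at 8.73, 8.56 and 9.67 in YFP- (-2.20 ± 0.36), while Vwf was high on replicate 1 alone. The part of leukocytes and platelets in the values of these genes was not tested.

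The diets did not move endothelial genes among the YFP+ cells past the threshold. In DDC against UTR, in CDE against UTR and in DDC against CDE 0 of the 43 genes were called by limma over the 8 YFP+ arrays. Calls over all genes were as rare, at 0.0949% higher and 0.0647% lower for DDC against UTR, 0% higher and 0% lower for CDE against UTR, and 0.418% higher and 0.742% lower for DDC against CDE (0.561% and 0.608% after quantile normalization). At an unadjusted p under 0.05, DDC against UTR had 2 of the 43 genes higher and 3 lower (4.74% and 5.69% of all genes). CDE against UTR had 1 higher and 6 lower (3.58% and 2.86%), and DDC against CDE 4 higher and 1 lower (6.52% and 8.81%). Arrays did not overlap for 2 higher and 6 lower genes in DDC against UTR (12.7% and 11.8% of all genes) and for 3 higher and 8 lower genes in CDE against UTR (11.5% and 10.5%). The comparisons with UTR share its 2 arrays. On the YFP+ arrays the median level of the 43 genes was low, at 4.96 to 5.21 in CDE, 5.15 to 5.30 in DDC and 5.14 to 5.46 in UTR. Array medians over all genes ran from 5.63 to 5.77. Group means were below the lower quartile of all genes for 6 of the 43 in DDC, 3 in CDE and 3 in UTR. A decrease in such genes could hardly be seen.

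Medians of the differences stayed near 0. Against UTR the sinusoidal markers had a median of -0.14 in DDC and -0.24 in CDE, and the general genes -0.06 in DDC and -0.08 in CDE. Between DDC and CDE the medians were 0.03 for sinusoidal markers and 0.04 for general genes. Over all genes these medians were 0.01 for DDC against UTR, 0 for CDE against UTR and 0.01 for DDC against CDE. On either diet the genes stayed far from their YFP- levels: all 8 YFP+ arrays lay below all 3 YFP- arrays for 42 of 43 genes, against 11.7% of all genes. The 8 YFP+ arrays spanned 4.78 to 5.43 for Stab2, 4.79 to 5.21 for Pecam1 and 5.57 to 6.18 for Oit3.

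Nrp1 was the gene with the clearest separation by diet. It was at 7.14, 7.21 and 7.21 in DDC, at 6.56, 7.23 and 6.75 in CDE and at 5.81 and 6.29 in UTR. Both diets lay above both UTR arrays, and the DDC arrays were nearly identical. The difference from UTR was 1.14 ± 0.21 in DDC (unadjusted p = 0.000557, limma adjusted p = 0.102) and 0.80 ± 0.21 in CDE (limma adjusted p = 0.623), and neither passed. Its ligands in the list gave no call: Vegfa was at 9.74, 9.77 and 9.76 in DDC, at 10.37, 10.07 and 10.14 in CDE and at 10.00 and 10.31 in UTR.

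Sinusoidal markers leaned the other way in several genes without passing. Clec4g was at 4.80, 6.04 and 4.94 in DDC, at 5.73, 5.46 and 6.34 in CDE and at 6.50 and 6.73 in UTR. UTR lay above all 6 diet arrays, and the differences were -1.36 ± 0.38 for DDC (limma adjusted p = 0.249) and -0.77 ± 0.38 for CDE (limma adjusted p = 0.811). Ehd3 was at 4.51, 4.66 and 4.51 in DDC, at 4.81, 4.72 and 5.18 in CDE and at 5.13 and 5.76 in UTR, with a difference of -0.88 ± 0.20 for DDC (limma adjusted p = 0.163). The DDC values of Ehd3 were the lowest of the 3 groups, and CDE overlapped UTR.

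Among general genes, Ramp2 was at 5.34, 5.49 and 5.32 in DDC, at 4.96, 5.74 and 5.64 in CDE and at 5.69 and 6.61 in UTR. Its differences from UTR were -0.77 ± 0.30 in DDC and -0.70 ± 0.30 in CDE (limma adjusted p = 0.427 and 0.773), with UTR replicate 2 far above the other arrays. Ptprb was at 4.72, 5.30 and 4.86 in DDC, at 4.62, 4.38 and 4.70 in CDE and at 4.90 and 5.84 in UTR. For Ramp2 the DDC arrays lay below both UTR arrays and CDE overlapped them, while for Ptprb CDE lay below both and DDC overlapped. The Ptprb difference between DDC and UTR was -0.41 ± 0.28 (limma adjusted p = 0.662), and without UTR replicate 2 it was 0.06.

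DDC and CDE had the lowest p-values against each other for Robo4 and Lyve1. Lyve1 was at 6.17, 6.03 and 6.05 in DDC and at 5.71, 5.82 and 5.61 in CDE (0.37 ± 0.10, limma adjusted p = 0.145). Robo4 was at 5.19, 5.23 and 5.22 in DDC and at 4.67, 4.91 and 4.70 in CDE (0.46 ± 0.12, limma adjusted p = 0.113). Neither gene overlapped between the diets and neither passed. Across the 43 genes 7 were higher without overlap in DDC and 2 lower, shares of the array being 9.64% and 10.6%.

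**Figure D4:**
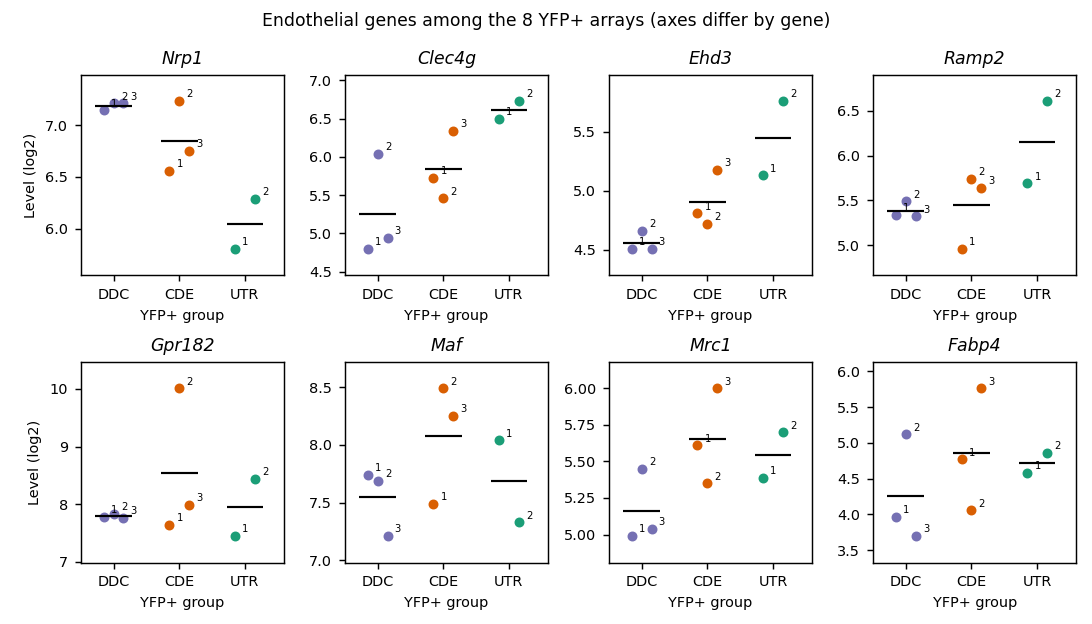
Log2 level of 8 endothelial genes (1 panel each, vertical axes differ) on the YFP+ arrays of the DDC, CDE and UTR groups, with points numbered by replicate and bars at group means. The arrays of both diets lie above UTR for Nrp1 and below it for Clec4g, neither past the threshold, and CDE replicate 2 stands apart for Gpr182.

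Some diet values rested on 1 array. Gpr182 was at 7.78, 7.83 and 7.77 in DDC, at 7.64, 10.01 and 7.99 in CDE and at 7.45 and 8.44 in UTR. The value of 10.01 stood apart, and without CDE replicate 2 the difference between CDE and UTR was -0.13, against 0.60 ± 0.62 with it. On that array 8 of 11 hepatocyte genes were also at their highest among the YFP+ arrays, against 10.9% of all genes. The mean of the hepatocyte list ran from 7.75 to 7.95 in DDC, 7.75 to 8.49 in CDE and 7.67 to 7.74 in UTR.

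Mrc1 and Fabp4 were highest on CDE replicate 3, at 6.0 and 5.76. On the same array 6 of 10 macrophage genes were at their highest, against 11.5% of all genes. The macrophage list stood 1.01 above the mean of the 8 arrays in the median. The mean of the macrophage list ran from 5.49 to 5.72 in DDC, 5.79 to 7.06 in CDE and 6.30 to 6.46 in UTR. Against UTR, 9 of 10 macrophage genes were on the lower side in DDC, with a median of -0.80 and 0 called. The part of other cells in the endothelial values of the YFP+ arrays was not tested.

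The 2 UTR arrays were not alike for endothelial genes. Replicate 2 was above replicate 1 for 35 of the 43 genes (81.4%, against 50% of all genes), with a median gap of 0.23 against 0. It was higher by more than 0.5 for 9 genes (20.9%, against 5.18%), the largest gaps being 1.02 for Adgrl4, 0.98 for Gpr182, 0.94 for Ptprb, 0.93 for Ramp2 and 0.89 for Dnase1l3. Maf went the other way, by -0.71. Of the 8 YFP+ arrays UTR replicate 2 was the highest for 16 of 43 genes (37.2%, against 11.7% of all genes).

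The differences by diet followed that choice of array. Without UTR replicate 2 the median of the sinusoidal markers was 0.07 in DDC and 0 in CDE against UTR, and without UTR replicate 1 it was -0.30 in DDC and -0.43 in CDE. For general genes the medians were 0.01 in DDC and 0.03 in CDE without replicate 2, and -0.11 and -0.19 without replicate 1. The direction of the sinusoidal medians therefore rested on UTR replicate 2. For Ehd3 the DDC difference was -0.57 without that array and -1.19 without replicate 1, on the same side in both.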

How the data were processed

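Values are the log2 levels that the authors deposited, 1 per feature and array on Affymetrix MoGene ST 2.0 arrays. Their normalization is not given in the sources used here, and base 2 was inferred from the range (2.55 to 13.57). Array medians ran from 5.63 to 5.77, and nothing was normalized again. Of 25206 features 23185 had 1 gene symbol and were tested; 2021 were unnamed.

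Tests were two-sided and used lmFit and eBayes of limma 3.58.1 (R 4.3.3), with Benjamini-Hochberg adjustment over 23185 genes. UTR against YFP- used all 11 arrays (7 residual degrees of freedom); the diets used the 8 YFP+ arrays (5 residual degrees of freedom). The fit was tested on simulated data that gave a gene the same spread in every group. It cannot check the calls of UTR against YFP- for genes that vary more among the YFP- arrays. Alternatives were quantile normalization, a filter on dim features (above the array median on at least 2 arrays), a trended prior, array weights, other sets of arrays, a replicate block and leaving out each array. Precision is limited by how few arrays there are.

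The endothelial genes and all lists (other cell types, ligands, partners, zones) were chosen with earlier results of these data known. Every endothelial gene was eligible to be named, as were up to 4 called genes per list and fixed markers. Promoter windows come from RefSeq (GRCm38.p6). No array positions are given, since no build is named for the values.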

Additional observations from a re-analysis of the deposited data

How the results depend on the processing

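No result changed sign past the threshold under any alternative run. For UTR against YFP-, 28 of the 43 genes passed with the 5 arrays alone, and the general genes among them numbered 17. The count was 41 with quantile normalization, with dim features left out or with array weights. It was 40 with a trended prior and 39 with a replicate block, which otherwise changed no call but that of Sox7. The filter on dim features left out Vwf and Aplnr. Genes such as Tek and Pecam1 passed that filter only through the YFP- arrays, where they were high, so its count is no separate evidence. Leaving out 1 array at a time gave 36 to 41 genes (12 to 13 sinusoidal, 24 to 28 general). The median difference ranged from -4.94 to -4.07 for sinusoidal markers and from -4.83 to -3.75 for general genes, the last without YFP- replicate 1.

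Calls of Sox7 were lost in 10 alternatives, of Sox17 and Plvap in 3 each and of Gata4 in 2. Flt4, Tie1, Esam, Erg, Sox18, Robo4, Cd34 and Cyyr1 lost theirs with the 5 arrays alone, and Nos3 gained one in 5. For each diet comparison 0 of the genes tested passed in any alternative. Most of the 43, among them Stab2 and Pecam1, were too low on the YFP+ arrays to pass the filter on dim features. They were not tested in that alternative. Over all genes UTR against YFP- called 2412 higher and 1961 lower, against 529 and 402 with the 5 arrays alone, 1447 and 985 without UTR replicate 1 and 1353 and 953 without UTR replicate 2. DDC against CDE called 97 higher and 172 lower, against 24 and 37 with a replicate block and 0 and 1 with all 11 arrays. It called 7 and 18 without CDE replicate 1 and 7 and 9 without CDE replicate 3, and leaving out single arrays gave 7 to 85 higher and 9 to 126 lower. CDE against UTR called 0 and 0, against 10 and 36 without UTR replicate 1. DDC against UTR called 22 and 15, against 0 and 0 with a replicate block, with all 11 arrays and without DDC replicate 2. Deviations of same-numbered arrays of UTR and YFP- correlated at 0.0779 and 0.0152. The deviations of 2 UTR arrays are mirror images, and cell markers differed widely among the YFP- arrays. Whether shared numbers pair these arrays therefore cannot be told from the values. Where dropping an array leaves 1 in UTR, it is assumed to vary like the other groups. The causes of these changes were not tested.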
